A study of Homo sapiens with 18 samples.

Results

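Of the 23686 genes in the deposited tables, 38 were described here as hypoxia-inducible and glycolysis genes. They were taken from the tables of both lines by their listed symbols, and all 38 were found. The members comprised 14 glycolytic enzymes (HK1, HK2, GPI, PFKL, PFKP, ALDOA, ALDOC, TPI1, GAPDH, PGK1, PGAM1, ENO1, ENO2 and LDHA) and 9 signalling and survival targets (VEGFA, ADM, ANGPTL4, MIF, BNIP3, BNIP3L, DDIT4, NDRG1 and FAM162A). The other members were the glycolytic regulators PFKFB3, PFKFB4, PDK1 and PDK3, the transporters SLC2A1, SLC2A3 and SLC16A3, the matrix genes P4HA1, P4HA2 and LOX, and BHLHE40, ZNF395, ANKRD37, INSIG2 and CA9. RNA was sequenced from OCI-Ly1 and TMD8, established cell lines from human diffuse large B-cell lymphoma. In each line, cells given the vehicle (0.01% DMSO) were set against cells given JIB-04 at 150 nM or at 500 nM, with 3 libraries in each of the 6 groups. JIB-04 is a small molecule that inhibits Jumonji-domain histone demethylases. Per the labels the 3 libraries of a group were technical triplicates, so the p-values measure the spread between libraries and not the spread between cultures. The medium was IMDM for OCI-Ly1 and RPMI 1640 for TMD8, each with 10% serum, so line and medium cannot be told apart. The length of the exposure is not given in the sources used here.

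Hypoxia-inducible factors (HIFs) pair an alpha subunit, HIF1A or EPAS1, with ARNT and bind short hypoxia response elements with the core ACGTG or GCGTG. In oxygen-replete cells the EGLN prolyl hydroxylases mark the alpha subunit for destruction through VHL. These hydroxylases and the Jumonji demethylases belong to the same enzyme superfamily, which uses oxygen, iron and alpha-ketoglutarate. HIF targets include most enzymes that turn glucose into lactate, the glucose carriers, secreted factors such as VEGFA, and the mitochondrial proteins BNIP3 and BNIP3L. Many of these genes also answer to other factors. MYC drives glycolytic enzymes in proliferating B cells, and ATF4, the effector of the integrated stress response, is known to raise VEGFA and DDIT4.

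The sequences around the transcription start were searched for the cores ACGTG and GCGTG and for 2 other motifs. RefSeq promoters of 300 bases (250 before and 50 after the start, build GRCh38.p14) were matched for 33 of the 38 members, and SLC2A3, VEGFA, BNIP3L, NDRG1 and ZNF395 had no entry. For 11 members more than 1 promoter was listed and the first was taken. Both strands were searched. The letters ACGTG lay in 60.6% of the 33 member promoters (20 of 33) and in 21.6% of all 27305 promoters (23.7% of the 15843 protein-coding ones). By class, ACGTG lay in 57.1% of the enzyme promoters and in 83.3% of the 6 promoters of signalling and survival targets. The other core, GCGTG, lay in 45.5% of member promoters against 36.3% of all promoters and 44.1% of the protein-coding ones, so members and protein-coding genes were nearly level. CACGTG, which contains ACGTG and is the E-box that MYC can bind, lay in 18.2% of member promoters, 7.43% of all and 8.88% of protein-coding ones. The ATF4 and C/EBP motif TGATGNAA lay in 3.03% of member promoters (1 of 33), 3.67% of all and 2.53% of protein-coding ones. Either core lay in 78.8% of member promoters (26 of 33), 48.4% of all and 55.9% of protein-coding ones. The members were listed as hypoxia-inducible and glycolysis genes, so these shares describe the list and not the treatment. A match describes these letters only and no binding was measured. The 250 bases before the start are printed, 5′ to 3′ on the gene's own strand, for 4 enzymes and 2 survival targets whose RNA is followed below. Capitals mark ACGTG or GCGTG on either strand.
LDHA (chr11:18394313-18394562, + strand): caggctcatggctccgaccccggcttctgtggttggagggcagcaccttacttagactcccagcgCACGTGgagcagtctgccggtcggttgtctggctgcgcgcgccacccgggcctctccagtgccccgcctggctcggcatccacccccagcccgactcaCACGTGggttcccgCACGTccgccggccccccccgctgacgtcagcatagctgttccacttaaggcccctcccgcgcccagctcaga
PGK1 (chrX:78103998-78104247, + strand): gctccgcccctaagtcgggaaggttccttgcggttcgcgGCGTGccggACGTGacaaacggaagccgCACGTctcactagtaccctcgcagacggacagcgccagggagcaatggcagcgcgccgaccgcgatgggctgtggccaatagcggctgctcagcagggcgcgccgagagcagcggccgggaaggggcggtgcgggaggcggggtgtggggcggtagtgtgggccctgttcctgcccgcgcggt
ENO1 (chr1:8878687-8878936, - strand): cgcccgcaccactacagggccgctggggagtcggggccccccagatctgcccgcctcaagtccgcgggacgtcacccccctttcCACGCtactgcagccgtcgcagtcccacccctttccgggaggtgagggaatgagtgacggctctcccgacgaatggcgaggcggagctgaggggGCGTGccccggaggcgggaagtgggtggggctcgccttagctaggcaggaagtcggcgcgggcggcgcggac
ALDOC (chr17:28576896-28577145, - strand): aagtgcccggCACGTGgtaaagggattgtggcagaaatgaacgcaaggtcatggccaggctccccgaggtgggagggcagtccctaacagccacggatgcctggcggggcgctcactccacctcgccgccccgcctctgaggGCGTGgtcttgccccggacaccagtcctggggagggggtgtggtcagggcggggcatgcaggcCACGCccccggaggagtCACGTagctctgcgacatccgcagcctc
DDIT4 (chr10:72273674-72273923, + strand): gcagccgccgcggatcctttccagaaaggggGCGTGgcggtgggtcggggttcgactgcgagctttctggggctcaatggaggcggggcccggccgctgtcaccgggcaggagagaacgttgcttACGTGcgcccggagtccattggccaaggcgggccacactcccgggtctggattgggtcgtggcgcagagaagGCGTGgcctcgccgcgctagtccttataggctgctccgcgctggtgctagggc
BNIP3 (chr10:131981924-131982173, - strand): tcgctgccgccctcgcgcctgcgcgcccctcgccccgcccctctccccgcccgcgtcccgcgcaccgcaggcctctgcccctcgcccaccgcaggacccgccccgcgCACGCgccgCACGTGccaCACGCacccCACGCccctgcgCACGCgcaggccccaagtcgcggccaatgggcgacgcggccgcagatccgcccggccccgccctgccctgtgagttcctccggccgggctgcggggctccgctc

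Each of these 6 chosen windows holds at least 1 core. Among the other enzymes, the 300-base windows of HK1, PFKP, TPI1 and PGAM1 hold neither. LDHA, the enzyme that makes lactate from pyruvate, has 5 ACGTG matches at 3 places, since each of its 2 CACGTG palindromes matches on both strands. The window of PGK1, which makes the first ATP of the pathway's pay-off phase, has 2 ACGTG and 1 GCGTG. These sequences are set beside RNA that moved in different directions, as described next.

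Depth, as the sum of estimated counts, was 17579732 to 32651115 per OCI-Ly1 library and 9550092 to 20509500 per TMD8 library. Values per library are given as TMM-normalised counts per 1000000 (CPM), and levels of different genes are compared only in TPM, which is per length. The B-cell markers fixed for this work (8 genes) summed to 950.4 to 1052 TPM in OCI-Ly1, where CR2 was at the floor of 3 counts, and to 541 to 940.2 TPM in TMD8, highest in DMSO and lowest at 500 nM, on a scale on which the median TMD8 gene also stood lower. Germinal-centre markers (5 genes) summed to 193 to 231 TPM in OCI-Ly1 and 23.2 to 45.3 TPM in TMD8, while activated B-cell markers (5 genes) went from 107 to 113 TPM with DMSO to 195 to 204 TPM at 500 nM in OCI-Ly1, and from 535 to 668 TPM to 300.4 to 345 TPM in TMD8. Epithelial markers (5 genes) summed to 14.4 to 19.9 TPM and fibroblast and endothelial markers (6 genes) to 1.34 to 4.21 TPM over all libraries. The 5 myeloid markers summed to at most 1.53 TPM in any library. The 4 T-cell markers found summed to 26.7 to 28.9 TPM in OCI-Ly1 given DMSO and 11.9 to 13.8 TPM at 500 nM, and to at most 1.82 TPM in TMD8, where CD3D, CD3E and CD2 were at the floor. Whether these marker changes bear on the members was not tested. In bulk RNA, fewer cells of a type and less RNA per cell cannot be told apart. The small RNA gene MIR3687 alone took 15.2% to 24.3% of all TPM in TMD8, and on log2(TPM + 1) the median gene at 500 nM stood at -0.22 against DMSO there. TPM folds of TMD8 members are read relative to that shift.

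In vehicle-treated cells GAPDH, ENO1, the cytokine MIF and the main aldolase ALDOA were the 4 most abundant members in both lines. Glyceraldehyde-3-phosphate dehydrogenase, GAPDH, stood first, at 3682 ± 115 TPM in OCI-Ly1 and 1208 ± 183 TPM in TMD8 (SD, n = 3 libraries). Enolase ENO1 stood at 1425 ± 77.3 and 544 ± 52.7 TPM, MIF at 914 ± 35.9 and 581 ± 61.9 TPM, and ALDOA at 719 ± 18.4 and 397 ± 56.8 TPM. TPI1 stood at 697 ± 14.4 and 273 ± 21.6 TPM and LDHA at 549.6 ± 64.3 and 339.9 ± 40.5 TPM. At the other end, NDRG1 was at 0.0468 ± 0.0106 TPM in OCI-Ly1, from 2 to 3 counts per library. Of the 38 members, 18 were higher in TMD8 given DMSO than in OCI-Ly1 given DMSO and 14 were lower, where 39% and 37.8% of all 16604 tested genes were (76.7% in all). The split depends on the scale: it was 14 higher and 18 lower with library size as the only scaling, and 10 higher and 25 lower on log2(TPM + 1), where the median gene stood at -0.61.

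The differences in resting level were large for some members. The transcriptional repressor BHLHE40 was at 0.198, 0.587 and 0.484 CPM in OCI-Ly1 and 82.3, 76.4 and 79.3 CPM in TMD8, a log2 difference of 7.72 (SE 0.14, adjusted p = 3.2e-26). The collagen prolyl hydroxylase subunit P4HA2 differed by 4.39 (SE 0.22, adjusted p = 1.4e-16) and the neuronal enolase ENO2 by 3.55 (SE 0.13, adjusted p = 1.5e-19), both higher in TMD8. VEGFA, the main angiogenic growth factor, was at 4.64, 6.75 and 7.99 CPM in OCI-Ly1 and 36.7, 37.1 and 39.7 CPM in TMD8 (log2 2.68, SE 0.12, adjusted p = 8.9e-18). The mitochondrial kinase PDK1 (-1.18), aldolase ALDOC (-1.12) and BNIP3 (-0.88) passed the test in the other direction. For each of these 7 genes the line, its medium and the line's library set change together.

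With JIB-04 the members split rather than moving as a block. At 500 nM in OCI-Ly1, 11 of 37 tested members rose and 17 fell, where 27.7% and 25.9% of all 15638 tested genes did (53.6% in either direction). At 500 nM in TMD8, 15 of 37 rose and 14 fell, where 29.9% and 30.7% of all 15363 tested genes did (60.7% in either direction). A count of called members at 500 nM is therefore read against a background in which most genes moved. At 150 nM the lines differed in extent. In TMD8 10 members rose and 17 fell (19.2% and 25% of all genes, 44.2% in all), and in OCI-Ly1 none rose and 10 fell by edgeR (0.748% and 0.141%, 0.889% in all). The number that rose there was also 0 by DESeq2 and was 1, DDIT4, at an unadjusted p under 0.05. For 29 of 37 members the DMSO and 150 nM libraries of TMD8 did not overlap, where 51.4% of all genes did not. CA9 could not be tested in OCI-Ly1, nor ANGPTL4 in TMD8, since their counts were below the filter. On the log2(TPM + 1) scale the TMD8 counts at 500 nM were 8 higher and 20 lower, and on the same scale centred on each library's median gene the OCI-Ly1 counts were 8 higher and 19 lower. Several called TMD8 values at 500 nM moved by over 1.5 times on log2(TPM + 1) and remained called. They were further below 0 for TPI1 (-1.12), PGK1 (-1.01), SLC2A1 (-0.67) and ZNF395 (-0.56), and nearer to 0 for NDRG1 (1.14), P4HA2 (0.84), ALDOC (0.78), PFKFB3 (0.69), SLC2A3 (0.47) and VEGFA (0.38).

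**Figure D1:**
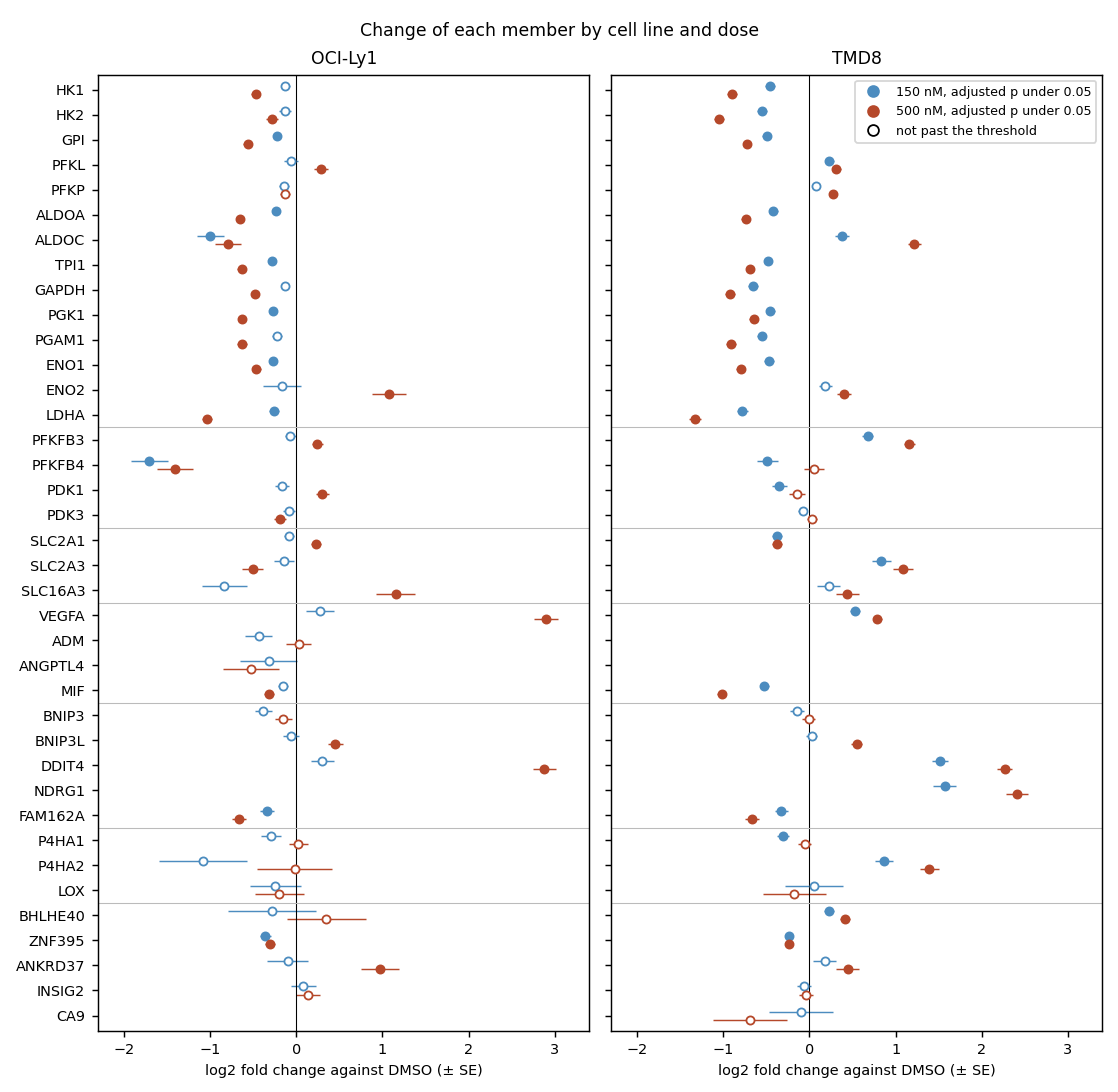
Log2 fold change against DMSO (x axis) with its standard error for the 38 members (y axis), in OCI-Ly1 (left) and TMD8 (right), at 150 nM (blue) and 500 nM (red). Filled points passed an adjusted p of 0.05 and open points did not, and grey lines divide the classes. NDRG1 in OCI-Ly1 and ADM in TMD8 are left out because their DMSO counts were at or near the floor. CA9 in OCI-Ly1 and ANGPTL4 in TMD8 are left out because they were not tested there. Most enzymes lie left of 0 in both lines, while VEGFA and DDIT4 lie to the right.

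The glycolytic enzymes mostly fell. At 500 nM, 11 of the 14 fell and 2 rose in OCI-Ly1, and 10 fell and 4 rose in TMD8. Over all tested genes 25.9% fell and 27.7% rose in OCI-Ly1, and 30.7% fell and 29.9% rose in TMD8. The median of their log2 fold changes was -0.52 in OCI-Ly1 and -0.73 in TMD8, beside -0.0033 and 0.041 for all tested genes. The same 10 enzymes fell in both lines: HK1, HK2, GPI, ALDOA, TPI1, GAPDH, PGK1, PGAM1, ENO1 and LDHA. Together the 14 enzymes took 1.02% of all counts in OCI-Ly1 given DMSO, 0.883% at 150 nM and 0.740% at 500 nM. In TMD8 the shares were 0.832%, 0.621% and 0.522%. All 14 had DMSO and 500 nM libraries that did not overlap in either line, where 60.7% (OCI-Ly1) and 66.4% (TMD8) of all tested genes did not.

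LDHA fell most among the enzymes at 500 nM in both lines. Its level in OCI-Ly1 was 810.4, 925 and 989.6 CPM with DMSO, 776, 728 and 767 CPM at 150 nM and 457, 436 and 434 CPM at 500 nM. In TMD8 it was 1046, 986 and 991 CPM, 655, 583 and 521 CPM and 396, 406 and 403 CPM. All libraries of a higher dose lay below all libraries of the lower dose in both lines. The log2 fold change at 500 nM was -1.04 (SE 0.059, adjusted p = 9.8e-11) in OCI-Ly1 and -1.33 (SE 0.066, adjusted p = 1.6e-11) in TMD8, that is 0.487 and 0.399 of the DMSO level. At 150 nM it was -0.26 (SE 0.058, adjusted p = 0.036) in OCI-Ly1 and -0.78 (SE 0.065, adjusted p = 6.8e-08) in TMD8. The OCI-Ly1 call at 150 nM was lost on the 3 TPM scales (adjusted p from 0.29 to 0.44), in a fit of the 2 groups alone (adjusted p = 0.13), and without DMSO library 2 or 3 or 150 nM library 2 or 3 (adjusted p from 0.08 to 0.26).

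PGK1, phosphoglycerate kinase, is the enzyme whose promoter is printed second. It was at 674, 715 and 758 CPM in OCI-Ly1 given DMSO, 603, 589 and 589 CPM at 150 nM and 473, 454 and 459 CPM at 500 nM. In TMD8 the values were 435, 409 and 409 CPM, 322, 308 and 284 CPM and 268, 269.7 and 261 CPM. The groups did not overlap in either line. Its log2 fold change at 500 nM was -0.63 (SE 0.047, adjusted p = 4.4e-09) in OCI-Ly1 and -0.65 (SE 0.052, adjusted p = 6.3e-09) in TMD8. ENO1 went the same way: 2239, 2366 and 2409 CPM with DMSO and 1769.5, 1674 and 1648 CPM at 500 nM in OCI-Ly1, and 1626, 1594 and 1597 CPM and 904, 922 and 942 CPM in TMD8. Again no library of the higher dose reached the DMSO libraries. The log2 fold change of ENO1 at 500 nM was -0.46 (SE 0.050, adjusted p = 4.9e-07) in OCI-Ly1 and -0.80 (SE 0.056, adjusted p = 1.4e-09) in TMD8.

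HK2 is the inducible hexokinase that commits glucose to the pathway. In OCI-Ly1 it was at 114, 132 and 119.9 CPM with DMSO, 123, 107 and 103 CPM at 150 nM and 101, 103 and 98.1 CPM at 500 nM. In TMD8 it started higher, at 278, 281 and 282 CPM, and stood at 209, 193 and 172 CPM and 136, 138 and 132 CPM. In OCI-Ly1 the 150 nM libraries overlapped the DMSO libraries and the 500 nM libraries lay below them, whereas in TMD8 the 3 groups were separate. For HK2 the log2 fold change at 500 nM was -0.28 (SE 0.069, adjusted p = 0.0025) in OCI-Ly1 and -1.05 (SE 0.059, adjusted p = 8e-11) in TMD8, and the OCI-Ly1 call was lost on log2(TPM + 1), with a value of -0.13 and an adjusted p of 0.15. The constitutive isozyme HK1 fell by 0.47 and by 0.90 on the log2 scale.

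The remaining enzymes that fell in both lines are given by their log2 fold changes at 500 nM. GPI, which isomerises glucose 6-phosphate, changed by -0.57 (OCI-Ly1) and -0.72 (TMD8) on the log2 scale, and the main aldolase ALDOA by -0.66 and -0.74. The triose phosphate isomerase TPI1 changed by -0.63 and -0.69, the mutase PGAM1 by -0.63 and -0.91, and GAPDH by -0.48 and -0.92. GAPDH is often used as a reference gene for RNA. It went from 2294, 2030.2 and 2073 CPM to 1104, 1131 and 1143 CPM in TMD8, so its 500 nM level was 0.528 of the DMSO level. The annotation used here lists pseudogene copies named after several of these genes (62 for GAPDH, 13 for PGAM1, 6 for LDHA, 4 each for TPI1 and ENO1). The deposited genes include 2 of the TPI1 copies, 1 of the PGAM1 copies and 0 of those of GAPDH, LDHA and ENO1. Whether reads were shared with such copies was not tested.

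A few enzymes rose or went opposite ways. ENO2 rose in both lines at 500 nM, from 2.38, 1.41 and 1.78 CPM to 4.23, 3.91 and 3.79 CPM in OCI-Ly1 and from 19.4, 22.4 and 19.8 CPM to 28.3, 26.0 and 26.9 CPM in TMD8. The groups did not overlap, and the log2 fold changes were 1.08 (SE 0.20, adjusted p = 0.00022) and 0.40 (SE 0.077, adjusted p = 0.0002). The liver-type phosphofructokinase PFKL rose by 0.29 and 0.31, and the platelet-type PFKP rose in TMD8 by 0.27. In OCI-Ly1 PFKP had a value of -0.13 with an adjusted p of 0.06, and the difference between lines was -0.37 (SE 0.072, adjusted p = 0.00012). On log2(TPM + 1), where the median gene's difference was 0.38, the PFKP difference was 0.11 and was not called (adjusted p = 0.37). On log2(TPM + 1), where the median TMD8 gene also stood lower, the TMD8 values of ENO2, PFKL and PFKP were 0.023, -0.066 and -0.10. None of them was called. On the centred TPM scale ENO2, PFKL (0.19, adjusted p = 0.0077) and PFKP (0.15, adjusted p = 0.0069) remained called in TMD8. PFKL in OCI-Ly1 lost its call on the centred TPM scale (0.20, adjusted p = 0.078).

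ALDOC, the brain-type aldolase, went in opposite directions in the lines. In OCI-Ly1 it was at 34.8, 39.2 and 55.7 CPM with DMSO, 24.9, 22.8 and 16.9 CPM at 150 nM and 27.6, 20.5 and 26.9 CPM at 500 nM. In TMD8 it was at 19.0, 17.0 and 18.8 CPM, 22.0, 22.3 and 26.2 CPM and 41.0, 42.6 and 44.4 CPM. Both doses lay below DMSO in OCI-Ly1 and overlapped each other, while in TMD8 each dose lay above the one before. The log2 fold change at 500 nM was -0.79 (SE 0.15, adjusted p = 0.00031) in OCI-Ly1 and 1.22 (SE 0.078, adjusted p = 4.2e-10) in TMD8, and the difference between lines was -1.98 (SE 0.20, adjusted p = 9.6e-09). The rise at 150 nM in TMD8 (0.37) lost its call on log2(TPM + 1) (0.19, adjusted p = 0.22), and the fall at 150 nM in OCI-Ly1 lost its call there too (-0.93, adjusted p = 0.1).

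**Figure D2:**
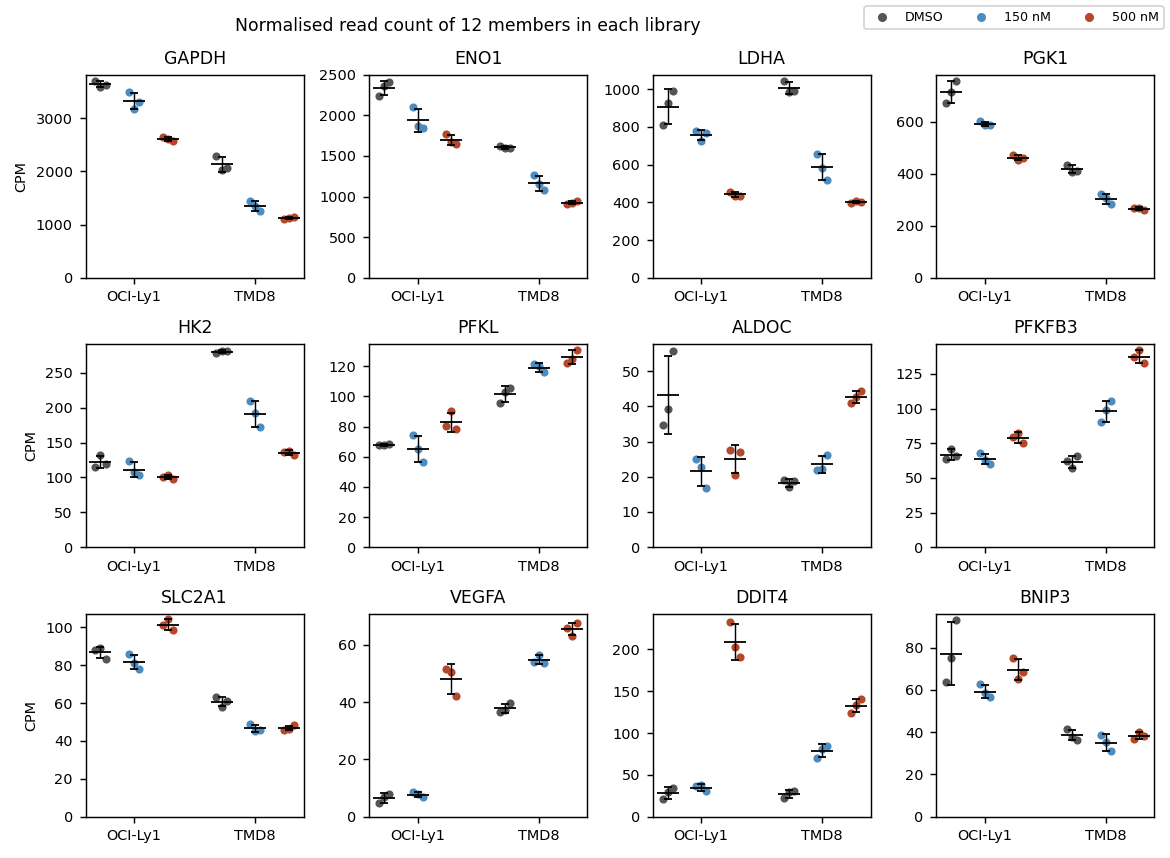
TMM-normalised CPM (y axis, from 0) of 12 members in each library, in OCI-Ly1 and TMD8 given DMSO (grey), 150 nM (blue) or 500 nM (red) JIB-04. Points are libraries and black marks are the mean ± SD of 3; LDHA, ENO1, PGK1 and GAPDH step down with dose in both lines, DDIT4 steps up, and VEGFA in OCI-Ly1 is low until 500 nM.

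Shares of TPM within isozyme families show a change of composition that a shift common to all genes cannot alter. LDHA, the form that favours lactate, was 31.8% ± 2.02 (SD, n = 3) of LDHA plus LDHB in OCI-Ly1 given DMSO, 28.6% ± 0.631 at 150 nM and 24.0% ± 0.245 at 500 nM. In TMD8 its share was 41.4% ± 0.228, 35.9% ± 0.428 and 30.9% ± 0.860. In both lines the share was lower at each higher dose, beyond the SD of the libraries. ALDOC was 2.09% ± 0.113 of aldolase TPM in TMD8 given DMSO and 7.66% ± 0.234 at 500 nM, but 4.75% ± 1.17 and 4.37% ± 0.709 in OCI-Ly1, where the difference was within the spread. The muscle-type phosphofructokinase PFKM, which is no member, went from 36.4% ± 1.25 to 28.1% ± 0.374 of phosphofructokinase TPM in OCI-Ly1 at 500 nM, while TMD8 went from 15.4% ± 0.678 to 8.91% ± 0.463. The share of PFKL went from 18.4% ± 0.443 to 25.4% ± 1.32 in OCI-Ly1, and that of PFKP from 68.1% ± 1.27 to 72.9% ± 0.244 in TMD8. HK2 as a share of hexokinase TPM went from 31.2% ± 1.40 to 34.2% ± 0.258 in OCI-Ly1, with 57.1% ± 0.776 and 54.5% ± 1.09 in TMD8.

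The glycolytic regulators went in mixed directions. PFKFB3 makes fructose 2,6-bisphosphate, the activator of phosphofructokinase. It was at 63.9, 70.9 and 65.7 CPM in OCI-Ly1 given DMSO and 79.7, 82.7 and 75.0 CPM at 500 nM, and at 62.3, 56.9 and 65.5 CPM, 90.1, 98.9 and 105 CPM and 137, 142 and 133 CPM over the doses in TMD8. The 500 nM libraries lay above DMSO in both lines, by a narrow margin in OCI-Ly1. Its log2 fold change at 500 nM was 0.25 (SE 0.064, adjusted p = 0.0036) in OCI-Ly1, a call lost on the centred TPM scale (adjusted p = 0.11), and 1.16 (SE 0.062, adjusted p = 4.4e-11) in TMD8. PFKFB4, an isozyme of it, fell in OCI-Ly1 from 10.5, 13.9 and 15.2 CPM to 5.77, 3.71 and 2.45 CPM at 150 nM and 5.90, 4.92 and 4.05 CPM at 500 nM. Both doses lay below DMSO and overlapped each other. The log2 fold change was -1.70 (SE 0.22, adjusted p = 0.00029) at 150 nM and -1.41 (SE 0.21, adjusted p = 2.2e-05) at 500 nM. In TMD8 PFKFB4 fell at 150 nM (-0.49, SE 0.12, adjusted p = 0.0031) and at 500 nM was 0.054 with an adjusted p of 0.71, rising by 0.54 between the doses.

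The pyruvate dehydrogenase kinases, which turn pyruvate away from mitochondria, moved by small amounts. PDK1 rose in OCI-Ly1 at 500 nM (0.30, SE 0.078, adjusted p = 0.0033) and fell in TMD8 at 150 nM (-0.35, SE 0.087, adjusted p = 0.0034). The OCI-Ly1 call was lost on the centred TPM scale (adjusted p = 0.074). PDK3 changed by -0.19 (log2) in OCI-Ly1 at 500 nM, with overlapping groups, and this call was lost with library size as the only scaling (adjusted p = 0.23), on the 3 TPM scales, and without DMSO library 2 or 3 or 500 nM library 1 or 3 (adjusted p from 0.057 to 0.15).

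The glucose carriers split between the lines. SLC2A1 (GLUT1) was at 87.7, 89.2 and 83.3 CPM in OCI-Ly1 given DMSO, 85.7, 81.3 and 77.9 CPM at 150 nM and 101, 104 and 98.5 CPM at 500 nM. In TMD8 it was at 63.0, 58.1 and 60.9 CPM, 48.8, 45.4 and 45.9 CPM and 46.0, 46.5 and 48.3 CPM. It rose in OCI-Ly1 at 500 nM (0.23, SE 0.056, adjusted p = 0.0027) and fell in TMD8 at both doses (-0.38 at 150 nM and -0.37, SE 0.057, adjusted p = 1.7e-05 at 500 nM). SLC2A3 (GLUT3) did the reverse: 10.9, 13.7 and 15.4 CPM with DMSO and 9.24, 9.41 and 9.45 CPM at 500 nM in OCI-Ly1, against 8.06, 8.52 and 9.71 CPM and 18.3, 20.7 and 16.7 CPM in TMD8. Its log2 fold change was -0.51 (SE 0.12, adjusted p = 0.0016) in OCI-Ly1, narrowly lost on log2(TPM + 1) (adjusted p = 0.053), and 1.08 (SE 0.11, adjusted p = 2e-07) in TMD8. For both carriers the 500 nM libraries did not overlap DMSO in either line. The OCI-Ly1 rise of SLC2A1 was 0.35 on log2(TPM + 1) and 0.13 when centred. SLC2A3 made up 12.5% ± 2.16 of the TPM of this pair in OCI-Ly1 given DMSO and 7.91% ± 0.251 at 500 nM, and 11.9% ± 1.14 and 26.8% ± 2.53 in TMD8. The lactate exporter SLC16A3 (MCT4) rose at 500 nM from 1.43, 1.11 and 1.82 CPM to 3.10, 3.64 and 3.13 CPM in OCI-Ly1 (1.15, SE 0.22, adjusted p = 0.00032). In TMD8 its rise of 0.44 (SE 0.13, adjusted p = 0.0083) was lost on log2(TPM + 1) (0.042, adjusted p = 0.74) and without the second 500 nM library (adjusted p = 0.06). That rise remained called on the centred TPM scale.

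Among the 9 signalling and survival targets the picture was mixed, with large rises in a few. At 500 nM 4 rose and 2 fell of the 9 tested in OCI-Ly1, and 5 rose and 2 fell of the 8 tested in TMD8, where 53.6% and 60.7% of all genes were called in either direction. At 150 nM none rose and 1 fell in OCI-Ly1, and 4 rose and 2 fell in TMD8 (0.889% and 44.2% of all genes were called). Their groups did not overlap for 7 of 9 at 500 nM in OCI-Ly1 and 7 of 8 in TMD8, where 60.7% and 66.4% of all genes did not overlap.

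VEGFA and DDIT4 had the largest called rises in OCI-Ly1 among members above the floor. VEGFA was at 4.64, 6.75 and 7.99 CPM with DMSO, 8.52, 7.88 and 6.81 CPM at 150 nM and 51.5, 50.5 and 42.0 CPM at 500 nM. TMD8 had 36.7, 37.1 and 39.7 CPM, 54.1, 56.6 and 53.8 CPM and 65.8, 63.2 and 67.6 CPM. In OCI-Ly1 the 150 nM libraries overlapped DMSO and the 500 nM libraries were far above both. In TMD8 all 3 groups were separate. VEGFA's log2 fold change at 500 nM was 2.90 (SE 0.14, adjusted p = 9.1e-12) in OCI-Ly1 (7.46-fold) and 0.79 (SE 0.057, adjusted p = 1.7e-09) in TMD8 (1.73-fold). On log2(TPM + 1) the TMD8 value was 0.38 and remained called.

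DDIT4 (REDD1), an inhibitor of mTORC1 that hypoxia and ATF4 both induce, rose in both lines. It was at 20.8, 29.8 and 34.7 CPM in OCI-Ly1 given DMSO, 36.5, 37.9 and 30.2 CPM at 150 nM and 232, 203 and 191 CPM at 500 nM. TMD8 had 22.3, 29.2 and 30.7 CPM, 69.9, 81.4 and 84.6 CPM and 124, 133 and 140.5 CPM. The 150 nM libraries overlapped DMSO in OCI-Ly1 and stood apart from it in TMD8. DDIT4's log2 fold change at 500 nM was 2.88 (SE 0.13, adjusted p = 3.6e-12) in OCI-Ly1 and 2.26 (SE 0.091, adjusted p = 1.5e-12) in TMD8, and at 150 nM it was 0.30 (SE 0.13, adjusted p = 0.44) and 1.52 (SE 0.092, adjusted p = 2e-09).

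The mitophagy receptors BNIP3 and BNIP3L parted. BNIP3, whose promoter is printed last, was at 63.7, 74.9 and 93.0 CPM in OCI-Ly1 given DMSO, 62.6, 58.5 and 56.6 CPM at 150 nM and 74.9, 65.3 and 68.4 CPM at 500 nM. The TMD8 libraries had 41.3, 37.9 and 36.5 CPM, 38.7, 35.4 and 30.9 CPM and 36.6, 39.9 and 38.3 CPM. The DMSO and 500 nM libraries overlapped in both lines, and the log2 values were -0.15 (SE 0.10, adjusted p = 0.2) and -0.0099 (SE 0.079, adjusted p = 0.92). Without the first DMSO library the OCI-Ly1 value was -0.28 (adjusted p = 0.011), and on log2(TPM + 1) the TMD8 value was -0.36 (adjusted p = 0.014). On the centred TPM scale the TMD8 value was -0.11 and was not called (adjusted p = 0.23). At 150 nM in OCI-Ly1 the edgeR value was -0.38 with an adjusted p of 0.093, and DESeq2 called it lower (adjusted p = 0.017). In TMD8 at 150 nM the value was -0.15 (adjusted p = 0.14), and -0.23 without 150 nM library 1 (adjusted p = 0.026). The annotation names 39 copies after BNIP3, and 0 of them are among the deposited genes. BNIP3L rose at 500 nM in both lines, from 61.9, 67.5 and 85.1 CPM to 103, 96.7 and 93.7 CPM in OCI-Ly1 and from 54.5, 46.5 and 48.5 CPM to 71.6, 74.4 and 72.1 CPM in TMD8. Its libraries did not overlap, and the log2 fold change was 0.45 (SE 0.089, adjusted p = 0.00038) and 0.55 (SE 0.061, adjusted p = 4.5e-07), the TMD8 call being lost on log2(TPM + 1) (adjusted p = 0.22). On the centred TPM scale the TMD8 call was kept. BNIP3L made up 27.6% ± 0.807 of the TPM of this pair in OCI-Ly1 given DMSO and 36.7% ± 1.02 at 500 nM, and 34.7% ± 1.02 and 43.8% ± 0.626 in TMD8.

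NDRG1, a stress-responsive gene widely used as a hypoxia marker, rose from almost nothing in OCI-Ly1. Its DMSO libraries there held 2, 2 and 3 counts, those at 150 nM 4, 4 and 1 and those at 500 nM 44, 39 and 50. The DMSO libraries lay at or under the floor of 3 counts per library, so the 500 nM level was at least 10.7-fold higher, and no fold is given at 150 nM. In TMD8 it was at 2.98, 3.64 and 3.47 CPM, 9.36, 9.05 and 11.5 CPM and 18.5, 18.1 and 17.3 CPM, separate at each dose. The TMD8 log2 fold change at 500 nM was 2.41 (SE 0.12, adjusted p = 2.6e-11). ADM, the vasodilator peptide adrenomedullin, showed the reverse of NDRG1's starting levels. Its counts in TMD8 given DMSO were 5, 2 and 0, against 10, 21 and 36 at 150 nM and 63, 45 and 31 at 500 nM. It was called higher in TMD8 at both doses, with no overlap. The fitted fold depends on the prior count because 2 of the DMSO libraries lay at or under the floor, so none is given. In OCI-Ly1 ADM was at 4.56, 4.40 and 4.28 CPM with DMSO and 4.53, 4.34 and 4.61 CPM at 500 nM, a log2 value of 0.026 (SE 0.14, adjusted p = 0.89).

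MIF, a cytokine gene among the most abundant members, and FAM162A, a mitochondrial HIF target tied to cell death, went down with the enzymes. MIF was at 347, 333 and 327 CPM in TMD8 given DMSO, 249, 221 and 232 CPM at 150 nM and 164, 168 and 164 CPM at 500 nM. In OCI-Ly1 it was at 311, 295 and 282 CPM, 287, 250.4 and 258 CPM and 230.5, 249 and 236 CPM. The TMD8 groups were separate, while in OCI-Ly1 the 150 nM libraries overlapped DMSO. Its log2 fold change at 500 nM was -1.02 (SE 0.050, adjusted p = 1.5e-11) in TMD8 and -0.31 (SE 0.058, adjusted p = 0.00019) in OCI-Ly1, the second being lost on log2(TPM + 1) (adjusted p = 0.057). FAM162A fell by 0.67 and 0.66 on the log2 scale. ANGPTL4, a secreted lipase inhibitor, had a log2 value of -0.53 (SE 0.33, adjusted p = 0.18) in OCI-Ly1 at 500 nM.

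The 13 genes of an ATF4 and stress response list, fixed for context and containing no member, stood beside these rises. All 13 were called higher at 500 nM in both lines (median log2 fold change 2.56 in OCI-Ly1 and 1.72 in TMD8) and at 150 nM in TMD8 (1.27), and 12 of 13 were at 150 nM in OCI-Ly1 (0.67). Of all tested genes, 27.7% (OCI-Ly1) and 29.9% (TMD8) were called higher at 500 nM, and 0.748% and 19.2% at 150 nM. The direction of the 13 listed genes was known from earlier results of these data. Among them the pseudokinase TRIB3 changed by 2.56 and 1.73 at 500 nM, and asparagine synthetase ASNS by 1.40 and 1.38. At 150 nM in OCI-Ly1, where 12 of the list and 0.889% of all genes had passed the test, 4 members stood above 0 without passing it. Among them were VEGFA (0.27, adjusted p = 0.6), DDIT4 (0.30, adjusted p = 0.44) and NDRG1, which had 1 to 4 counts per library. The part of ATF4 activity in the rise of VEGFA, DDIT4 or NDRG1 was not tested, and these values do not decide it.

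The contrast between the enzymes and the signalling and survival targets was seen in every library at 500 nM. The median log2 fold change of the targets in OCI-Ly1 was -0.16 at the lower dose and 0.026 at the higher, and 0.28 and 0.67 in TMD8. That of the enzymes was -0.23, -0.52, -0.46 and -0.73 in the same order. The targets' median thus stood above the enzymes' by 0.068 and 0.55 in OCI-Ly1 and by 0.74 and 1.40 in TMD8. As distances of each library from the DMSO mean on log2(CPM + 0.5), the enzymes' median at 500 nM was -0.53, -0.52 and -0.52 in OCI-Ly1, and TMD8 gave -0.75, -0.72 and -0.72. The targets' median was 0.034, -0.022 and 0.057 in OCI-Ly1, where TMD8 gave 0.66, 0.65 and 0.68. These medians describe members chosen with earlier results known and carry no test. The OCI-Ly1 median of the targets at 500 nM is ADM's value, which was -0.092 on the centred TPM scale, with NDRG1, VEGFA, DDIT4 and BNIP3L above it and BNIP3, MIF, ANGPTL4 and FAM162A below. On log2(TPM + 1) the TMD8 medians at 500 nM were -1.11 for the enzymes and 0.27 for the targets.

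**Figure D3:**
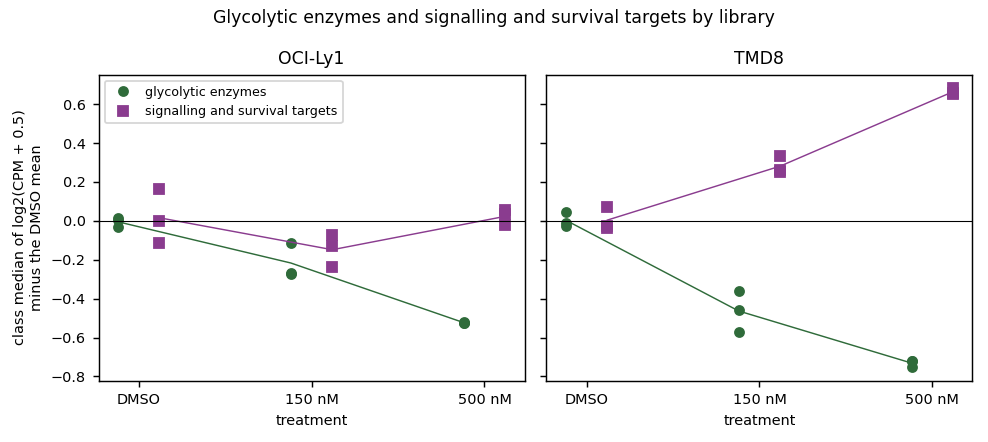
Median over the class of log2(CPM + 0.5) minus its DMSO mean (y axis) in each library, by dose (x axis), in OCI-Ly1 (left) and TMD8 (right). Green circles are the 14 enzymes, purple squares the 9 signalling and survival targets (8 in TMD8, where ANGPTL4 was not tested), and lines join group means; at 500 nM the enzymes lie below -0.5 in all 6 libraries and the targets lie near 0 in OCI-Ly1 and above 0.6 in TMD8.

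P4HA2 was the 1 matrix gene called at 500 nM, in TMD8. It was at 9.78, 9.20 and 10.7 CPM in TMD8 given DMSO, 14.9, 20.2 and 18.9 CPM at 150 nM and 25.9, 27.9 and 23.9 CPM at 500 nM, against 0.278, 0.411 and 0.807 CPM and 0.626, 0.426 and 0.428 CPM with DMSO and 500 nM in OCI-Ly1. P4HA2 stepped up with dose in TMD8 without overlap and stayed under 1 CPM in OCI-Ly1. Its TMD8 log2 fold change at 500 nM was 1.39 (SE 0.11, adjusted p = 4.1e-09). P4HA1, the more widely expressed subunit, fell at 150 nM in TMD8 (-0.31) and at 500 nM had values of 0.025 and -0.055 with adjusted p of 0.86 and 0.54. The collagen cross-linking enzyme LOX was under 2 CPM in every library and was not called in either line. BHLHE40 rose in TMD8 at 500 nM (0.42, SE 0.060, adjusted p = 8.8e-06), a call lost on log2(TPM + 1) (adjusted p = 0.77) and kept on the centred TPM scale. The zinc-finger gene ZNF395 fell in both lines at 500 nM (-0.31 and -0.24), the OCI-Ly1 call being lost on log2(TPM + 1) (adjusted p = 0.077). ANKRD37, a small ankyrin-repeat HIF target, rose in OCI-Ly1 (0.97, SE 0.22, adjusted p = 0.0011) and in TMD8 (0.44, SE 0.13, adjusted p = 0.0085), where DESeq2 did not call it (adjusted p = 0.069), nor did the log2(TPM + 1) fit (adjusted p = 0.66) or the fit without 500 nM library 2 (adjusted p = 0.05). The centred TPM fit kept the TMD8 call of ANKRD37. INSIG2, a brake on sterol synthesis, had values of 0.13 and -0.039 and adjusted p of 0.45 and 0.71. CA9, the pH-regulating carbonic anhydrase often used as a HIF marker, had at most 3 counts in any JIB-04 library of OCI-Ly1 and a TMD8 value of -0.69 (SE 0.43, adjusted p = 0.18).

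At 150 nM in OCI-Ly1 only 139 of 15638 genes were called, 0.889% in either direction, and 22 of them were lower. The 10 members that fell were GPI, ALDOA, ALDOC, TPI1, PGK1, ENO1, LDHA, PFKFB4, FAM162A and ZNF395, which is 10 of the 22 and 10 of the 37 tested members. Apart from PFKFB4 and ALDOC, these falls were small, from -0.36 for ZNF395 to -0.23 for GPI on the log2 scale. The member count is unstable: it was 12, 5 and 7 without DMSO library 1, 2 and 3, 14, 2 and 6 without 150 nM library 1, 2 and 3, 5 in a fit of the 2 groups alone and 1 on each TPM scale. The first 150 nM library held the highest value of its group for 14 of 14 enzymes (38.2% of all genes), and the third held the lowest for 23 of 37 members. The first DMSO library held the lowest value for 27 of 37 members (34.8% of all genes). The part of these library differences in the calls was not tested. For 16 of 37 members all 150 nM libraries lay below all DMSO libraries and for none did they lie above, where 14% of all genes did not overlap.

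Between 150 and 500 nM, 13 members rose and 12 fell in OCI-Ly1 (25.1% and 21.1% of all genes, 46.2% in all), and 13 rose and 12 fell in TMD8 (13.7% and 15%, 28.7% in all), or 4 and 12 on log2(TPM + 1). For 28 of 37 members in OCI-Ly1 and 29 of 37 in TMD8 the libraries of the 2 doses did not overlap (55.6% and 44.8% of all genes). LDHA changed in TMD8 by -0.78 against DMSO and by a further -0.55, while in OCI-Ly1 it changed by -0.26 and a further -0.77. VEGFA changed by 0.27 (adjusted p = 0.6) and then 2.62 in OCI-Ly1, and by 0.53 and then 0.26 in TMD8. The 2 steps share the 150 nM libraries.

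At 500 nM, of 36 members tested in both lines, 9 rose in both (PFKL, ENO2, PFKFB3, SLC16A3, VEGFA, BNIP3L, DDIT4, NDRG1 and ANKRD37), 13 fell in both (the 10 enzymes named above with MIF, FAM162A and ZNF395) and 3 were called in opposite directions (ALDOC, SLC2A1 and SLC2A3). In OCI-Ly1 27.7% of all genes rose and 25.9% fell, and in TMD8 29.9% and 30.7% did. The share of all genes called the same way in both lines was not counted, so these member counts have no background. The size of the effect was then tested between lines, taking the TMD8 change from the OCI-Ly1 change. At 500 nM 15 members passed with a higher value in OCI-Ly1 and 7 with a lower one (28.2% and 18.1% of all genes, 46.4% in all), and at 150 nM 8 and 10 did (15% and 8.33%, 23.3% in all). The split moved with the method. At 150 nM it was 12 and 9 with DESeq2 and 11 and 8 on log2(TPM + 1), and at 500 nM it was 24 and 7 on log2(TPM + 1) and 14 and 12 on the centred scale.

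Among the members that passed this test at 500 nM, the largest differences were those of VEGFA (2.14, SE 0.15, adjusted p = 1.4e-11) and NDRG1 (1.37, SE 0.41, adjusted p = 0.011) on the OCI-Ly1 side, and of ADM (-4.66, SE 0.48, adjusted p = 1.5e-08) and ALDOC on the TMD8 side. VEGFA started lower in OCI-Ly1, as given above for DMSO. NDRG1 rests on 2 to 3 DMSO counts in OCI-Ly1: its difference was -0.51 on log2(TPM + 1) and -0.96 when centred, and it was no longer called without the first OCI-Ly1 DMSO library (adjusted p = 0.071). The ADM value rests on 0 to 5 DMSO counts in TMD8 and is no bound. Of the enzymes, HK1, HK2, GPI, GAPDH, PGAM1, ENO1 and LDHA fell less in OCI-Ly1, with differences from 0.19 (GPI) to 0.80 (HK2). For GPI the call was lost with library size as the only scaling (adjusted p = 0.053) and without any 1 of 8 of the 12 libraries (adjusted p from 0.059 to 0.079). PGK1 (0.049, adjusted p = 0.64) did not pass. On log2(TPM + 1), where the median gene stood at 0.38, the PGK1 difference was 0.52 and was called (adjusted p = 0.00094). It was not called on the centred TPM scale. The difference for SLC16A3 (0.73, SE 0.24, adjusted p = 0.014) lost its call on the centred TPM scale (0.29, adjusted p = 0.063). P4HA2 (-1.38, SE 0.38, adjusted p = 0.004) lost its call without the third OCI-Ly1 DMSO library (adjusted p = 0.18).

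**Figure D4:**
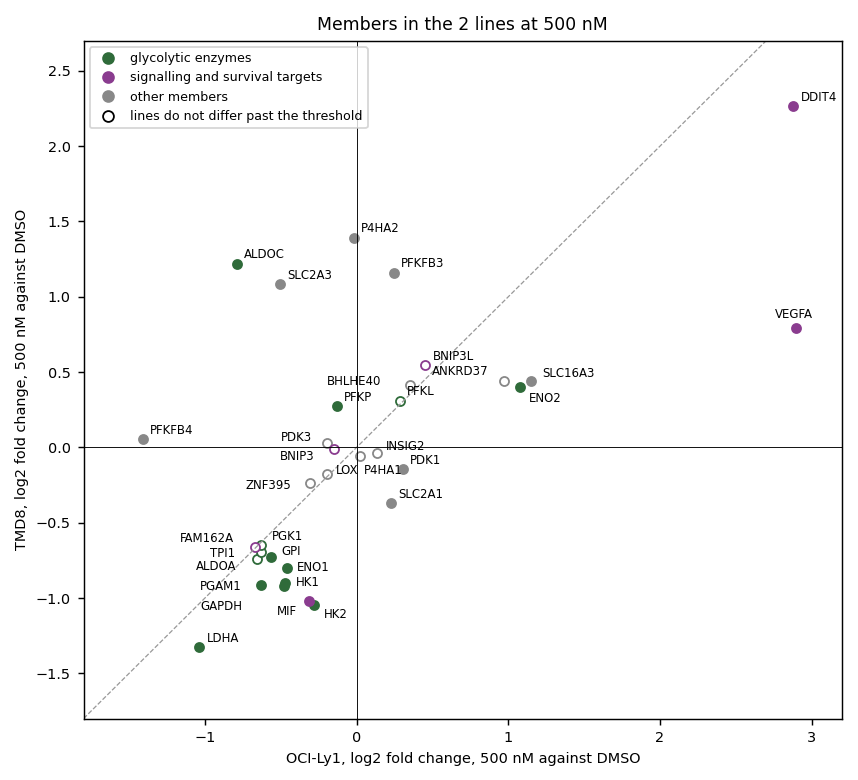
Log2 fold change at 500 nM against DMSO in OCI-Ly1 (x axis) and TMD8 (y axis) for the members tested in both lines. Green points are enzymes, purple points signalling and survival targets and grey points the others, filled where the difference between lines passed the test, and the dashed line marks equal change; NDRG1, ADM, CA9 and ANGPTL4 are not drawn. The 10 enzymes that fell in both lines cluster at lower left while ALDOC, PFKP, PFKL and ENO2 lie above 0 in TMD8, DDIT4 lies near the line at upper right, and VEGFA lies far to its right.

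Other genes of the same pathways, from lists fixed for context, give the setting. Of 22 glycolysis genes that are no members, 15 were tested in each line. At 500 nM 6 rose and 6 fell in OCI-Ly1 and 5 rose and 8 fell in TMD8 (medians 0.13 and -0.35). The background for these lists was 27.7% of all genes higher and 25.9% lower in OCI-Ly1, and 29.9% and 30.7% in TMD8. PKM, the last kinase of the pathway, fell by 0.54 and 0.55, and LDHB, the partner of LDHA, fell by 0.47 and 0.67. Of 30 further hypoxia-inducible genes, 11 rose and 4 fell of the 23 tested in OCI-Ly1 at 500 nM. In TMD8 16 rose and 3 fell of the 24 tested (medians 0.18 and 0.31 in the 2 lines). Of the 11 genes of the HIF machinery, 4 rose and 2 fell of the 9 tested in OCI-Ly1. In TMD8 3 rose and 1 fell of the 11 tested. That is 66.7% and 36.4% called, where 53.6% and 60.7% of all genes were. HIF1A, the oxygen-regulated subunit, is controlled mainly as protein, which was not measured. Its RNA had log2 values of 0.25 (SE 0.067, adjusted p = 0.0046) in OCI-Ly1 and -0.029 (SE 0.055, adjusted p = 0.66) in TMD8.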

How the data were processed

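Total RNA from each group was depleted of ribosomal RNA and sequenced in paired ends from technical triplicate libraries, per the labels' protocols. The authors deposited estimated counts and TPM per gene symbol for the 9 libraries of each line. Per the submitters' processing notes, kallisto 0.46.0, R 4.3.1, DESeq2 1.40.2 and hg19 were used, without stated roles; the index and the step from transcripts to genes are not given in the sources used here. Because the deposited estimated counts include fractions, they were rounded before testing; TPM, summing to 1000000 per library as deposited, served for levels, isozyme shares and alternatives. Kallisto can split reads between near-identical copies, and TPM moves with a few very abundant short transcripts.

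The 9 libraries of a line were fitted with edgeR 4.0.16 in R 4.3.3 (TMM, low-count filter by group, quasi-likelihood test, no covariate), and genes were called at a Benjamini-Hochberg adjusted p under 0.05 over all tested genes of a contrast. The difference between lines came from 1 fit of all 18 libraries. Standard errors are the absolute log2 fold change over the square root of F. Alternatives were DESeq2 1.42.0, other scalings, no low-count filter, limma 3.58.1 on log2(TPM + 1) and log2(TPM + 0.1), only the groups compared, a replicate block and leaving out each library. Groups with at most 3 counts in every library were taken as at the floor. Total counts of 9550092 to 32651115 and a biological coefficient of variation of 6.84% (OCI-Ly1) and 5.30% (TMD8) set the precision. Within groups, 18 library pairs had chi-square per degree of freedom of 1.62 to 10.9 and correlations of at least 0.995, so none was taken as a duplicate.

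Full statistics went to the 3 most raised and 3 most lowered called members at 500 nM in each line with at least 5 CPM in the higher group, the 2 with the largest difference between lines each way, and VEGFA, BNIP3, DDIT4, SLC2A1, HK2, PGK1, LDHA and ENO1; others named in passing were chosen after their values were seen. The members and all lists (other glycolysis, other hypoxia-inducible, HIF machinery, ATF4 and stress, cell type markers) were chosen with earlier results of these data known. Of 153 listed symbols, 2 matched by an older symbol and TRAC was not matched. The test was checked on simulated data.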

Additional observations from a re-analysis of the deposited data

Results flagged for a closer look

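The change against DMSO differed between the lines for 18 members at 150 nM and 22 at 500 nM, by a test of the difference itself (edgeR quasi-likelihood test on 18 libraries, adjusted p under 0.05). Values are the log2 fold change in OCI-Ly1 minus that in TMD8, and line and medium cannot be told apart.

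At 150 nM the values of GAPDH (0.53), LDHA (0.53), HK2 (0.43), MIF (0.37), PGAM1 (0.34), HK1 (0.33), SLC2A1 (0.30) and GPI (0.28) were less far below 0 in OCI-Ly1 than in TMD8. On the other side stood ADM (-3.75, from few counts in TMD8), P4HA2 (-1.94), ALDOC (-1.36), DDIT4 (-1.21), PFKFB4 (-1.20), SLC16A3 (-1.05), SLC2A3 (-0.97), PFKFB3 (-0.73), PFKL (-0.28) and PFKP (-0.22).

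At 500 nM, VEGFA (2.14), NDRG1 (1.37), SLC16A3 (0.73), ENO2 (0.70) and DDIT4 (0.64) passed with a higher value in OCI-Ly1. HK2 (0.80), MIF (0.74), GAPDH (0.47), HK1 (0.46), ENO1 (0.37), LDHA (0.32), PGAM1 (0.31) and GPI (0.19) fell less there, and SLC2A1 (0.63) and PDK1 (0.48) were also on this side. Values below 0 were those of ADM (-4.66), ALDOC (-1.98), SLC2A3 (-1.56), PFKFB4 (-1.43), P4HA2 (-1.38), PFKFB3 (-0.88) and PFKP (-0.37). DDIT4 and SLC16A3 stood below 0 at 150 nM and above 0 at 500 nM. The call for SLC16A3 was lost on the centred TPM scale (0.29, adjusted p = 0.063). The value for NDRG1 was -0.51 on log2(TPM + 1) and -0.96 when centred, and its call was lost without the first OCI-Ly1 DMSO library. The call for GPI was lost in 8 of the 12 fits that leave out 1 library, and that for P4HA2 without the third OCI-Ly1 DMSO library. PFKP had 0.11 on log2(TPM + 1), not called, where the median gene stood at 0.38.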

How the results depend on the processing

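DESeq2, RLE size factors, no low-count filter and the replicate block kept every count of called members and every class median within 1.5 times or 1 SD. Same-number libraries gave 18 correlations from -0.0696 to 0.259, of which 4 were over 0.1. All 4 joined DMSO to 150 nM: OCI-Ly1 replicate 1 (0.259) and replicate 3 (0.259), TMD8 replicate 1 (0.180) and replicate 3 (0.143). No pair with a 500 nM library passed 0.1. What these correlations reflect was not tested. The replicate block turned only the sign of P4HA2 at 500 nM in OCI-Ly1 (0.025, not called) and changed no call among the member values compared. Over all genes at 150 nM in OCI-Ly1, it called 207 where the main fit called 139. The count of members lower at 150 nM in OCI-Ly1 was 1 on all 3 TPM scales, 5 with the groups compared only and 2 to 14 leaving out 1 library. On log2(TPM + 1) and log2(TPM + 0.1), members higher numbered 8 and 8 at 500 nM in TMD8, 4 and 4 between its doses, 24 and 24 for the line difference at 500 nM, and 10 and 10 (25 and 25 lower) for the DMSO level. On the centred scale 12 were lower in the line difference at 500 nM. Calls lost on log2(TPM + 1) were kept there for HK2, SLC2A3, MIF and ZNF395 at 500 nM in OCI-Ly1 and for ALDOC at 150 nM in TMD8. The enzymes' median at 500 nM was -0.43 with library size only, -0.38 and -0.38 on the TPM scales and -0.61 centred in OCI-Ly1, and -0.64 with library size only, -1.11 and -1.11 on the TPM scales and -0.86 centred in TMD8. At 150 nM in TMD8 it was -0.61 and -0.62 on the TPM scales. The targets' median in TMD8 was 0.36 with library size only, 0.12 and 0.13 on the TPM scales and 0.21 centred at 150 nM, and 0.76 with library size only, 0.27 and 0.29 on the TPM scales and 0.52 centred at 500 nM. For the line difference on the TPM scales the medians were 0.40 and 0.40 (enzymes, 150 nM), -0.088 and -0.076 (targets, 150 nM; -0.35 to -0.068 leaving out 1 library), 0.70 and 0.73 (enzymes, 500 nM) and 0.43 and 0.50 (targets, 500 nM). All tested genes had medians of 0.11 and 0.16 at 150 nM and 0.38 and 0.50 at 500 nM there.

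Signs turned for these values. On log2(TPM + 1) and log2(TPM + 0.1): BNIP3 0.00090 and 0.0012 and P4HA2 0.028 and 0.14 at 500 nM in OCI-Ly1, BNIP3L -0.12 and -0.13 at 150 nM in TMD8, PFKL -0.066 and -0.069, PFKP -0.10 and -0.10 and PFKFB4 -0.22 and -0.32 at 500 nM in TMD8. For the line difference at 500 nM they were PFKP 0.11 and 0.11, BNIP3 0.36 and 0.38 and BNIP3L 0.43 and 0.43, with NDRG1 -0.51 on log2(TPM + 1). Centred: NDRG1 -0.024 and ADM -0.092 in OCI-Ly1 at 150 and 500 nM, BNIP3L -0.022 at 150 nM in TMD8 and NDRG1 -0.96 between lines. With library size only: P4HA2 0.066 in OCI-Ly1 and BNIP3 0.083 in TMD8, both at 500 nM. Leaving out 1 library gave ranges across 0 for BNIP3L -0.16 to 0.093 (OCI-Ly1, 150 nM), ADM -0.00043 to 0.046 (OCI-Ly1, 500 nM), BNIP3 -0.28 to 0.0062 (OCI-Ly1, 500 nM), P4HA2 -0.34 to 0.56 (OCI-Ly1, 500 nM), BNIP3L -0.024 to 0.089 (TMD8, 150 nM), PFKFB4 -0.037 to 0.13 (TMD8, 500 nM), BNIP3 -0.051 to 0.037 (TMD8, 500 nM), BNIP3 -0.23 to 0.051 (line difference, 500 nM), BNIP3L -0.16 to 0.085 (line difference, 500 nM). In each case the cause was not tested. Depth limits NDRG1 and CA9 in OCI-Ly1 and ADM and ANGPTL4 in TMD8.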
